A study of Mus musculus with 24 samples.

Results

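Pure manganese powder was compared with no metal in 12 arrays, 6 per group, out of the 24 arrays of the series. The cells were BALB/3T3 clone A31, a single clone of fibroblasts grown from a BALB/c mouse embryo. In the manganese group, powder at 0.5 mg/ml lay above the cell layer in tissue culture inserts for 24 h. The control wells were cultured for the same 24 h in the same serum-containing DMEM and received no powder. The other 12 arrays of the series, with iron or iron-manganese alloy powder, did not enter the comparison. Replicates are named as technical in the sample titles, while the treatment protocol gives at least 6 replicates for each powder and for the controls. No protocol says that they came from separate cultures, so a p-value here covers array-to-array spread that may be technical alone. How much manganese dissolved was not analysed here.

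Manganese is an essential trace metal that serves as cofactor of the mitochondrial superoxide dismutase, of arginase and of many Golgi glycosyltransferases. Excess manganese is toxic, best known in nerve cells, where mitochondria are among the affected organelles. Fibroblasts in serum are driven by growth factor receptors that signal through the RAS and ERK kinases, and they build and contract the extracellular matrix.

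Signal is given as normalised intensity on the log2 scale, so that a log2 change of 1 is a 2-fold difference between group means. A gene was called when its limma adjusted p (Benjamini-Hochberg over all genes tested) was under 0.05. Of 12520 genes above background on at least 6 of the 12 arrays, 8018 were called (64%), 3904 of them higher with manganese (31.2% of genes tested) and 4114 lower (32.9%). Most of these changes were small. The median fold of a called gene was 1.24 and 3278 called genes differed by under 1.2-fold. When the test asked for a change above 1.2-fold (limma treat), 3088 genes passed, 1515 higher and 1573 lower. Counts by this test in single lists are read against these numbers out of 12520. At least 2-fold were 537 called genes (4.29%), 327 higher (2.61%) and 210 lower (1.68%), and at least 4-fold were 68 higher and 11 lower. The groups did not overlap on any array for 5600 genes (44.7%). Without normalisation between arrays the calls split into 2969 higher and 4727 lower, and the median log2 change of all genes moved from -0.000985 to -0.05, so small changes of long lists are read against these shares.

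**Figure D1:**
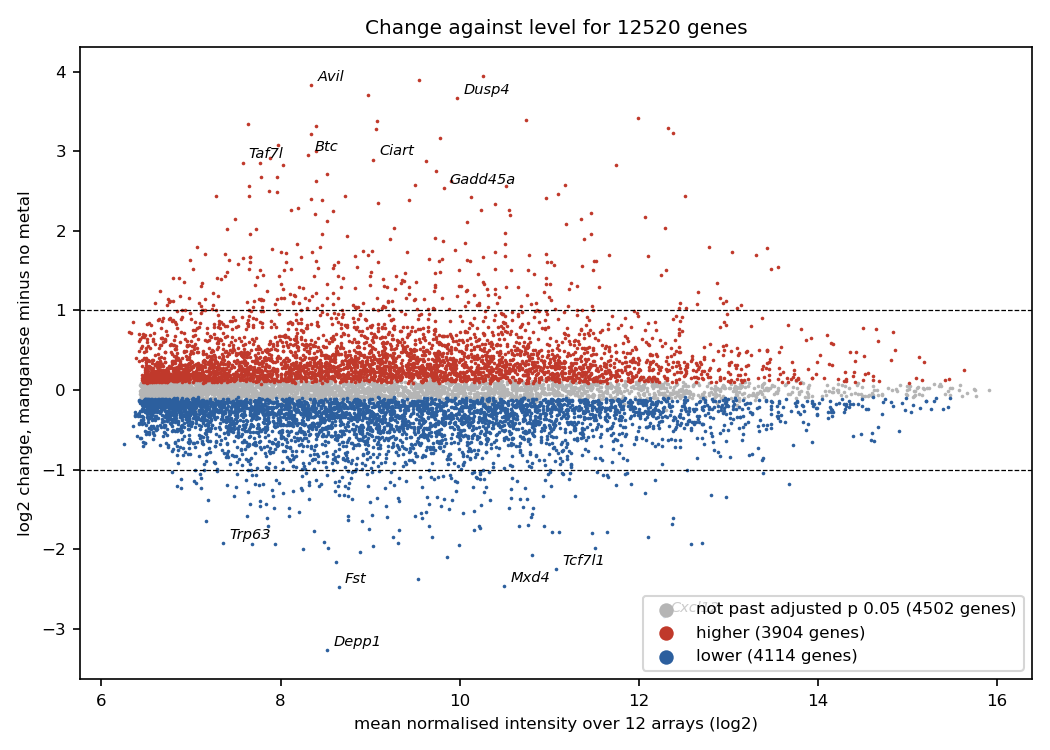
Each point is 1 of 12520 genes, with its mean normalised intensity over 12 arrays (log2) on the x axis and its log2 change, manganese minus no metal, on the y axis. Dashed lines mark 2-fold. The largest rises and falls span the intensity range, from Trp63 and Taf7l at low signal to Cxcl12 at high signal.

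The arrays fell into their groups. Of the variance, 87.4% lay along the first principal component, with control arrays at -26.0 to -25.4 and manganese arrays at 23.9 to 28.0. Median probe intensity was 71.0 to 74.7 per array. Above background lay 41.3% to 42.5% of probes on control arrays and 39.3% to 40.6% on manganese arrays, so the groups did not overlap in this share. Of 15 fibroblast markers 11 were tested, and all 11 were above background on every array of both groups, while Col1a1, Fap, Lum and Postn did not reach the background filter. Of the 11, 10 fell and none rose, where 32.9% of all genes tested fell. The 11 had a median log2 change of -0.68 and a mean level that went from 10.56 to 9.90. Among them Col1a2 (type I collagen) changed by -0.68, Pdgfrb by -1.06 and the filament protein Vim by -0.65. Dcn (-0.16, limma adjusted p = 0.0305) and Fn1 (-0.13, limma adjusted p = 0.0398) passed narrowly, while Twist1, at -0.04, did not pass. Because RNA came from whole wells, fewer cells of a kind and less RNA per cell cannot be told apart. Markers of other cell types were sparse. Of those on the array, 2 of 10 for leukocytes, 1 of 9 for endothelium, 3 of 10 for epithelium, 0 of 6 for adipocytes, 2 of 8 for muscle and 2 of 7 for neural cells passed the filter, and the means of the tested genes of each type lay between 6.12 and 7.84 in controls and were no higher than 7.81 with manganese. Of the 10 tested, Cd14 (0.39), Krt14 (1.01) and Des (0.27) rose, Vwf was called higher from below background in the 6 control arrays, Lyz2 was called lower to below background in the 6 manganese arrays, and the other 5 were not called, while Ptprc, Pecam1, Epcam, Adipoq, Myod1 and Rbfox3 were all below the filter. What part such genes play in the results was not tested.

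Genes of the integrated stress response with endoplasmic reticulum stress, the hypoxia response with glycolysis, interferon signalling and sterol synthesis were set aside. Other kinds of stress had no list set aside. Of the genes called by at least 2-fold, 106 of 327 higher and 15 of 210 lower belonged to those 4 lists. Genes with an array symbol only could not be matched to the lists, so these counts may be too low. The data were read through 53 other lists of pathways, organelles and families, which share 6 genes with the 4 lists set aside. In 24 of the 53 more genes rose than fell and in 29 more fell than rose.

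**Figure D2:**
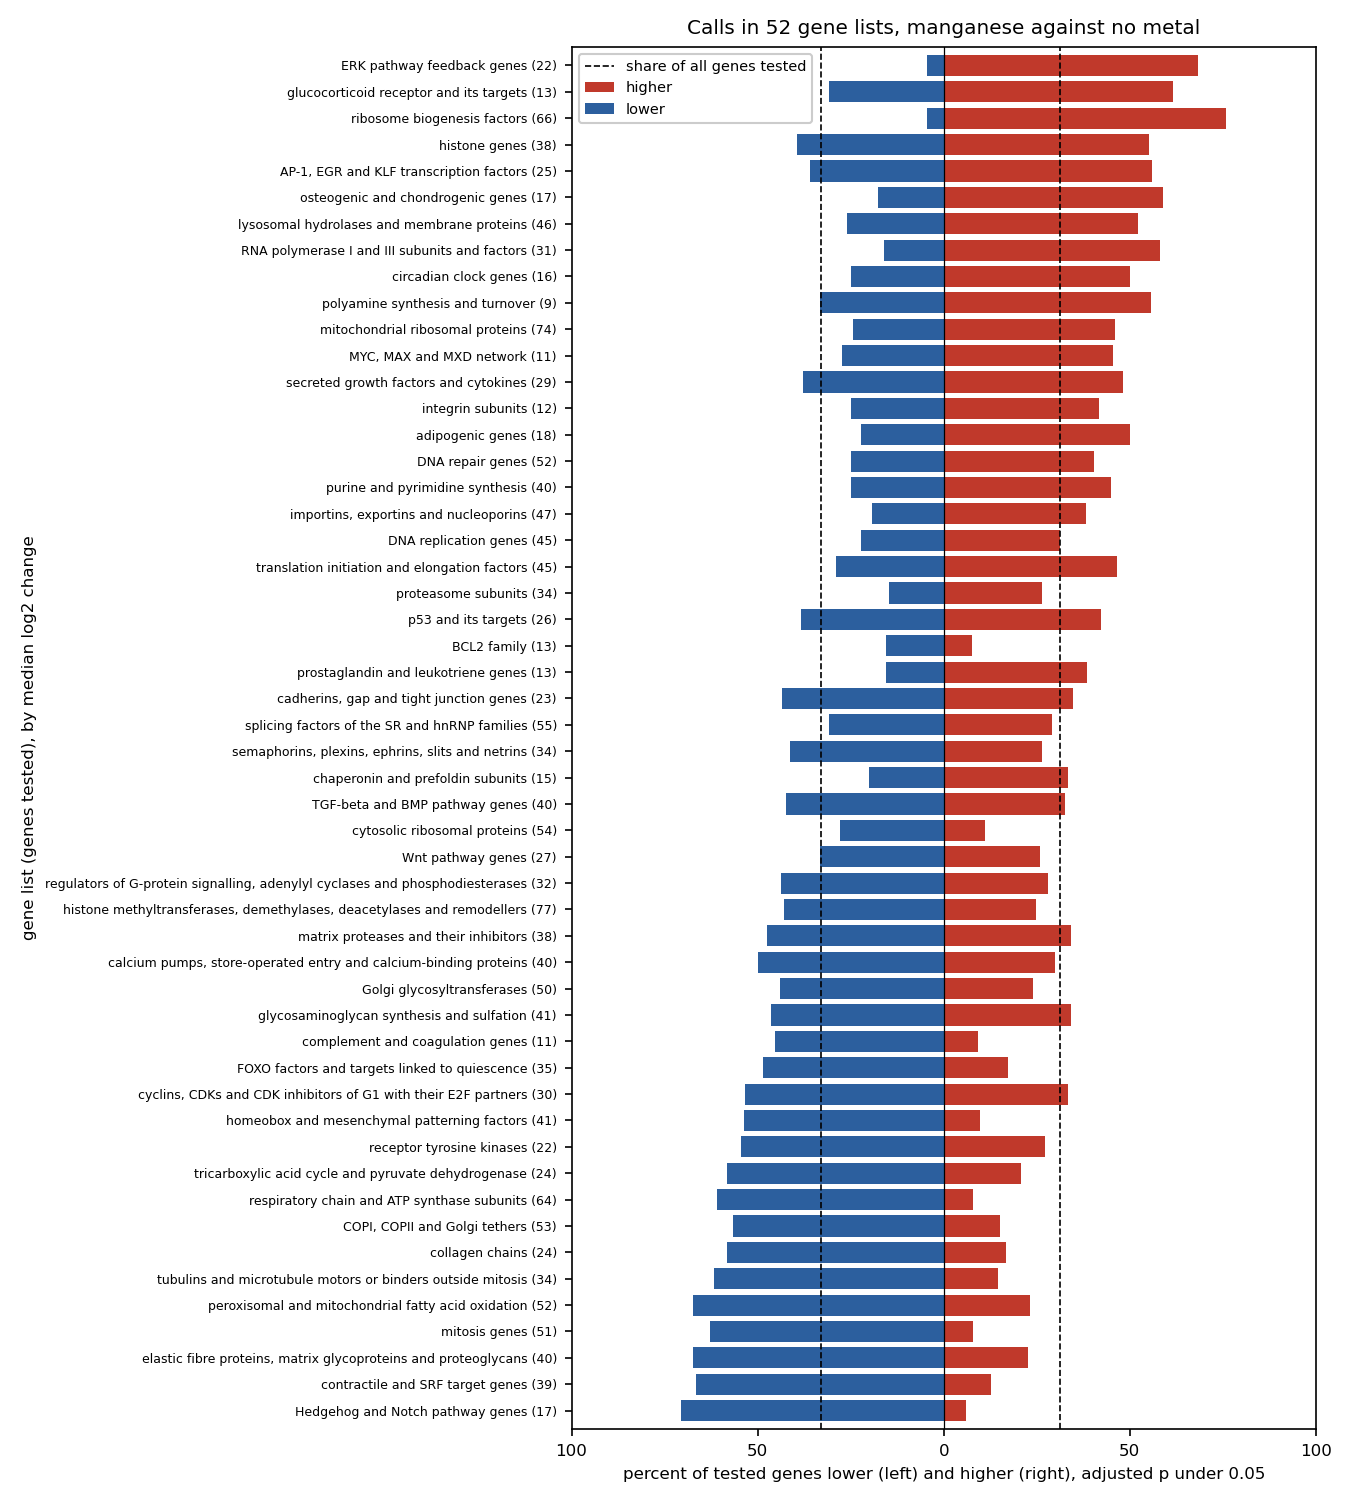
Bars give the percent of tested genes that were called lower (blue, left) and higher (red, right) with manganese in each of 52 gene lists, ordered by median log2 change, with the number of tested genes in parentheses. Dashed lines mark the shares over all 12520 genes, 31.2% higher and 32.9% lower. ERK feedback genes and ribosome biogenesis factors lean to the right, and Hedgehog and Notch, contractile, matrix and mitosis genes to the left.

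The gene with the largest rise outside the lists set aside was Avil, which encodes advillin, an actin-binding protein of the villin family. Its level was 6.31 to 6.52 on control arrays (median 6.42) and 10.09 to 10.51 with manganese (median 10.23). Only 2 of the 6 controls gave signal above background, and no manganese array came near them (log2 change 3.83, SE 0.0578, adjusted p = 3.93e-20). Nrap, a muscle anchoring protein for actin filaments, went from 6.63 to 6.87 (median 6.74) in controls to 9.87 to 10.28 (median 10.05), a log2 change of 3.32 (SE 0.0579, adjusted p = 2.7e-19). Rab3d, a GTPase of secretory vesicles, rose by 3.28 (SE 0.0503), from a median of 7.44 to 10.69, and the groups were again far apart. Krt16, a keratin of stressed epidermis, rose by 3.08 (SE 0.0718), with signal above background on 2 of 6 controls. Ngef, a guanine nucleotide exchange factor, rose by 3.01, Gsta1, a glutathione transferase with close relatives in its family, by 2.68. Cox6a2, the muscle form of a cytochrome oxidase subunit, rose from a median of 6.62 to 9.13. Stbd1, which tethers glycogen to membranes, rose by 2.44. Several of these genes are best known from muscle, skin or nerve.

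**Figure D3:**
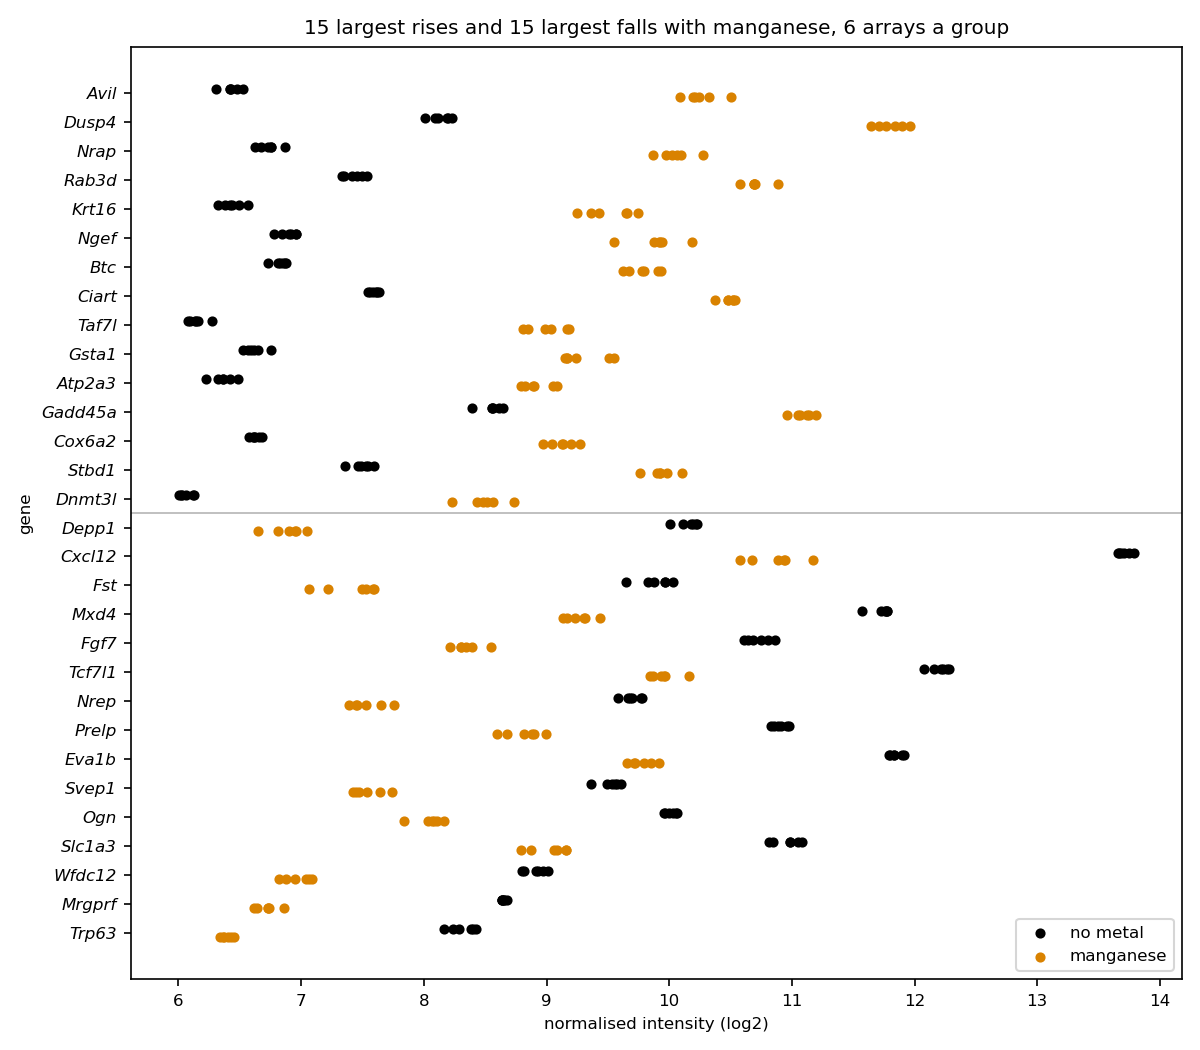
Normalised intensity (log2) on each of the 6 control arrays (black) and 6 manganese arrays (orange) for the 15 genes with the largest rises (top, from Avil) and the 15 with the largest falls (bottom, from Depp1). In each of the 30 genes the groups do not overlap, as the rule that chose them required.

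RNA for genes of growth factor signalling changed in several lists, and signalling itself was not measured. Of 22 tested genes of the ERK feedback list, 15 rose (68.2%) and 1 fell, with a median log2 change of 0.61. The list joins MAP kinase phosphatases and other inhibitors with further genes linked to ERK, and not all of their products damp the pathway. Dusp4, a phosphatase that inactivates MAP kinases in the nucleus, was at 8.01 to 8.23 (median 8.15) in controls and at 11.64 to 11.96 (median 11.80) with manganese. No control array reached the manganese range, and the log2 change was 3.67 (SE 0.0541, adjusted p = 3.36e-20), though the 4 probes of the gene ran from 0.71 to 3.67. The ETS factor Etv4 rose by 1.84 (SE 0.0524), with control arrays at 9.02 to 9.30 and manganese arrays at 10.83 to 11.07, and Ier3, an early gene of growth factor signalling, by 1.56 (SE 0.039). Of the 9 Dusp phosphatases in the list 7 rose and 1 fell, while of 5 Spry and Spred inhibitors 2 rose, and their median was 0.06.

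Secreted growth factors and cytokines went both ways, 14 of 29 higher and 11 lower (median 0.08). Btc, betacellulin, a ligand of the EGF receptor, was between 6.73 and 6.87 in controls (median 6.84) and between 9.62 and 9.93 with manganese (median 9.79), a log2 change of 2.96 (SE 0.0515, adjusted p = 2.7e-19). Cxcl12, the chemokine that CXCR4 reads, was among the most intense signals in controls at 13.66 to 13.79 (median 13.69) and lay at 10.58 to 11.17 (median 10.91) with manganese. All 6 manganese arrays were below every control (log2 change -2.84, SE 0.0726, adjusted p = 4.33e-17). Fgf7, a fibroblast growth factor that acts on epithelium, was at 10.61 to 10.86 in controls (median 10.71) and 8.22 to 8.55 with manganese (median 8.32), a log2 change of -2.37 (SE 0.0555, adjusted p = 1.25e-17). Receptor tyrosine kinases fell more often than they rose, 12 against 6 of 22 (median -0.16). Pdgfra, a receptor for platelet-derived growth factor, fell by 1.44 (SE 0.0504). Fgfr2 changed by -1.59 on its most intense probe and by -0.29 on the weakest of its 3 probes. Igf1r, the receptor for insulin-like growth factor, changed by -1.10 on its chosen probe, but the 3 probes ran from -1.10 to -0.16 and the authors' normalized gene table, which joins all probes of a symbol, gave 0.000924 (adjusted p = 0.918).

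The MYC network sets growth against rest through partners of MAX, which bind the letters CACGTG, the E-box, as MYC-MAX or as MXD-MAX pairs. Of 11 tested genes of the network 5 rose and 3 fell (median 0.08), or 3 and 3 without normalisation. Mxd4, a MAX partner that opposes MYC, was at 11.57 to 11.78 in controls (median 11.76) and at 9.13 to 9.44 with manganese (median 9.27). The groups were more than 2 log2 units apart at their nearest arrays, and the log2 change was -2.46 (SE 0.0523, adjusted p = 3.95e-18), with all 3 probes between -2.46 and -1.47. Myc itself rose by 0.64 (SE 0.049, adjusted p = 7.49e-10), with controls at 7.21 to 7.51 and manganese arrays at 7.94 to 8.07. Mycl was called higher from a control signal that was not above background on any array, and was at least 1.74-fold higher. The window of 250 bases before to 50 bases after the start of Mxd4 (RefSeq, GRCm38.p6, chr5:34187661-34187960, minus strand) held 1 E-box, 219 bases before the start, printed in capitals because the MYC and clock factors bind these letters.
Mxd4: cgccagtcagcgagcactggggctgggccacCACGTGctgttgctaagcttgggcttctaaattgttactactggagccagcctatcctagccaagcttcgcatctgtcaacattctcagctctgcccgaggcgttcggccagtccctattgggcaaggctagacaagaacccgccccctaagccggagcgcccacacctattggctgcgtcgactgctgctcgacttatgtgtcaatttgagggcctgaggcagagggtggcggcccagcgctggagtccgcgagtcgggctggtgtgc

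FOXO factors switch on genes of quiescent cells when growth factor signalling is low. Of 35 tested FOXO factors and targets, 17 fell and 6 rose (median -0.13). Depp1, a FOXO target, had the largest fall of the comparison outside the lists set aside. It was at 10.00 to 10.23 in controls (median 10.19) and at 6.65 to 7.05 with manganese (median 6.93), with no overlap (log2 change -3.27, SE 0.0587, adjusted p = 3.59e-19). Sesn1, a sestrin that restrains the kinase complex mTORC1, changed by -1.59 (SE 0.0461) on its chosen probe and by -0.27 on its weakest. Gadd45a, a growth arrest gene that FOXO, p53 and stress signals all induce, went against them and rose by 2.54 (SE 0.0482), from a median of 8.56 to 11.09.

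Most genes for assembling ribosomes rose, while 33 of 54 genes for ribosomal proteins themselves were not called. Of 66 tested ribosome biogenesis factors, 50 rose (75.8%) and 3 fell, with a median log2 change of 0.40, and 37 rose and 1 fell by limma treat above 1.2-fold. Rrp12, needed for maturing and exporting both subunits, was at 10.76 to 10.85 in controls (median 10.80) and 11.68 to 11.94 with manganese (median 11.81), a log2 change of 1.01 (SE 0.0459, adjusted p = 2.56e-13). Noc3l rose by 1.02 (SE 0.0483). Utp4, a subunit of the complex that processes small subunit RNA, rose by 0.77 (SE 0.0377), from 11.20 to 11.33 in controls (median 11.26) to 11.98 to 12.09 (median 12.03). The 6 manganese arrays lay above all controls for each of these genes. Of 31 subunits and factors of RNA polymerases I and III, which transcribe ribosomal and transfer RNA, 18 rose (58.1%) and 5 fell (median 0.13). Polr3e rose by 0.63 and Taf1a, a polymerase I factor, by 0.62, while Polr1a was 0.52 on its chosen probe and -0.22 on another. By contrast, 6 of 54 cytosolic ribosomal proteins rose (11.1%) and 15 fell (27.8%), with a median of -0.06 and log2 changes between -0.50 (Rpl36a) and 0.48 (Rps15a). Only 3 of the 54 passed limma treat above 1.2-fold, 1 higher and 2 lower. Ribosomal protein genes have many processed copies, so their probes may read more than 1 gene.

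The start of Utp4 carried 1 E-box, 15 bases after the start, and 2 copies of the core letters of the metal response element, 49 bases before and 2 bases after it (RefSeq, GRCm38.p6, chr8:106893390-106893689, plus strand), and the sequence is shown as one of the ribosome biogenesis promoters that hold the E-box, with the motifs in capitals.
Utp4: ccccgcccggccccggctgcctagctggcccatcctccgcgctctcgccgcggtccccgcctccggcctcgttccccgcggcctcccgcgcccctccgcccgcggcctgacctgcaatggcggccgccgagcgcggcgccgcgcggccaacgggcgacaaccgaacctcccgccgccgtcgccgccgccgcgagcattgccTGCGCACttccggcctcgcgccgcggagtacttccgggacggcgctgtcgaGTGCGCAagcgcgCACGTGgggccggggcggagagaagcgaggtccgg

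Promoter windows of the same length were in the table for 8108 of 9962 annotated genes tested. Genes of the 4 lists set aside were kept in all promoter counts. Among all genes called by at least 2-fold, with or without a window, they make up 106 of 327 higher and 15 of 210 lower. The E-box (CACGTG, the same on both strands) was in 10.5% of all 8108 windows, in 12.4% of genes that rose and 9.24% of genes that fell. The order turned among genes changed by at least 2-fold, at 6.48% of those higher and 9.42% of those lower. It was in 13 of 54 ribosome biogenesis windows (24.1%) and 5 of 25 polymerase I and III windows (20%), but in 0 of 43 windows of fatty acid oxidation genes. The AP-1 letters TGACTCA, searched on both strands, were in 3.59% of all windows, in 17 of 216 windows of genes higher by at least 2-fold (7.87%) and in 4 of 138 of genes lower by at least 2-fold (2.90%), against 3.69% of all genes that rose and 3.21% of all that fell. By list, the AP-1 letters were in 0 of 54 ribosome biogenesis, 0 of 25 polymerase I and III and 0 of 17 ERK feedback windows. In lists where most genes fell, they were in 3 of 43 fatty acid oxidation windows (6.98%) and 3 of 26 windows of matrix glycoproteins and proteoglycans (11.5%). The forkhead letters GTAAACA were in 203 of the 8108 windows (2.50%), in 2.09% of genes that rose and 2.67% of genes that fell. None of the 54 ribosome biogenesis, 25 polymerase I and III, 43 fatty acid oxidation and 26 matrix windows held them, and 1 of 17 ERK feedback windows did. With so low a share over all windows, a count of 0 in a short list says little. The metal response core (the letters TGCGCAC, or else TGCACAC, or else TGCACCC, on either strand) was in 1137 of the 8108 windows, 14.5% of genes that rose and 13.8% of genes that fell. A match is a match of letters in 1 window per gene and was not tested as a binding site.

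Around protein synthesis, 21 of 45 translation factors rose and 13 fell (median 0.04), with Eif2b3, a subunit of the exchange factor for eIF2, at 0.96 and Eif2s2, a subunit of eIF2, at 0.75. For mitochondrial ribosomal proteins the count was 34 higher and 18 lower of 74 (median 0.08), but the members with the smallest adjusted p fell, Mrpl34 by 1.54 (SE 0.0506), Mrps21 by 0.86 and Mrpl18 by 0.79. Of 47 importins, exportins and nucleoporins, 18 rose and 9 fell (median 0.05), among them the nuclear pore genes Nup43 (0.76) and Rae1 (0.80) and the RAN exchange factor Rcc1 (0.69). Purine and pyrimidine synthesis genes stood at 18 higher and 10 lower of 40 (median 0.05), with Dctd at 0.52 and Shmt1 at 0.47 against Ak3 at -0.48, but at 2 higher and 6 lower by limma treat above 1.2-fold. In polyamine synthesis and turnover 5 of 9 genes rose and 3 fell (median 0.11), or 3 and 3 without normalisation. Dhps, which makes hypusine on eIF5A, rose by 0.96 (SE 0.0381), Srm (spermidine synthase) by 0.45 and Odc1, the entry enzyme, by 0.17, while Sat2 fell by 1.19, Oaz2, an antizyme that inhibits Odc1, by 0.49 and Atp13a3 by 0.40. Atp13a2 (0.14) and Dohh (0.11) passed narrowly and lost the call in several settings, and Smox (0.10) did not pass. Splicing factors were balanced at 16 higher and 17 lower of 55 (median -0.01). Cirbp, an RNA-binding protein induced by cold, fell by 0.88 and Srsf9 by 0.47. Mbnl1 was at -0.55 on its chosen probe and at 0.000829 in the authors' normalized gene table.

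**Figure D4:**
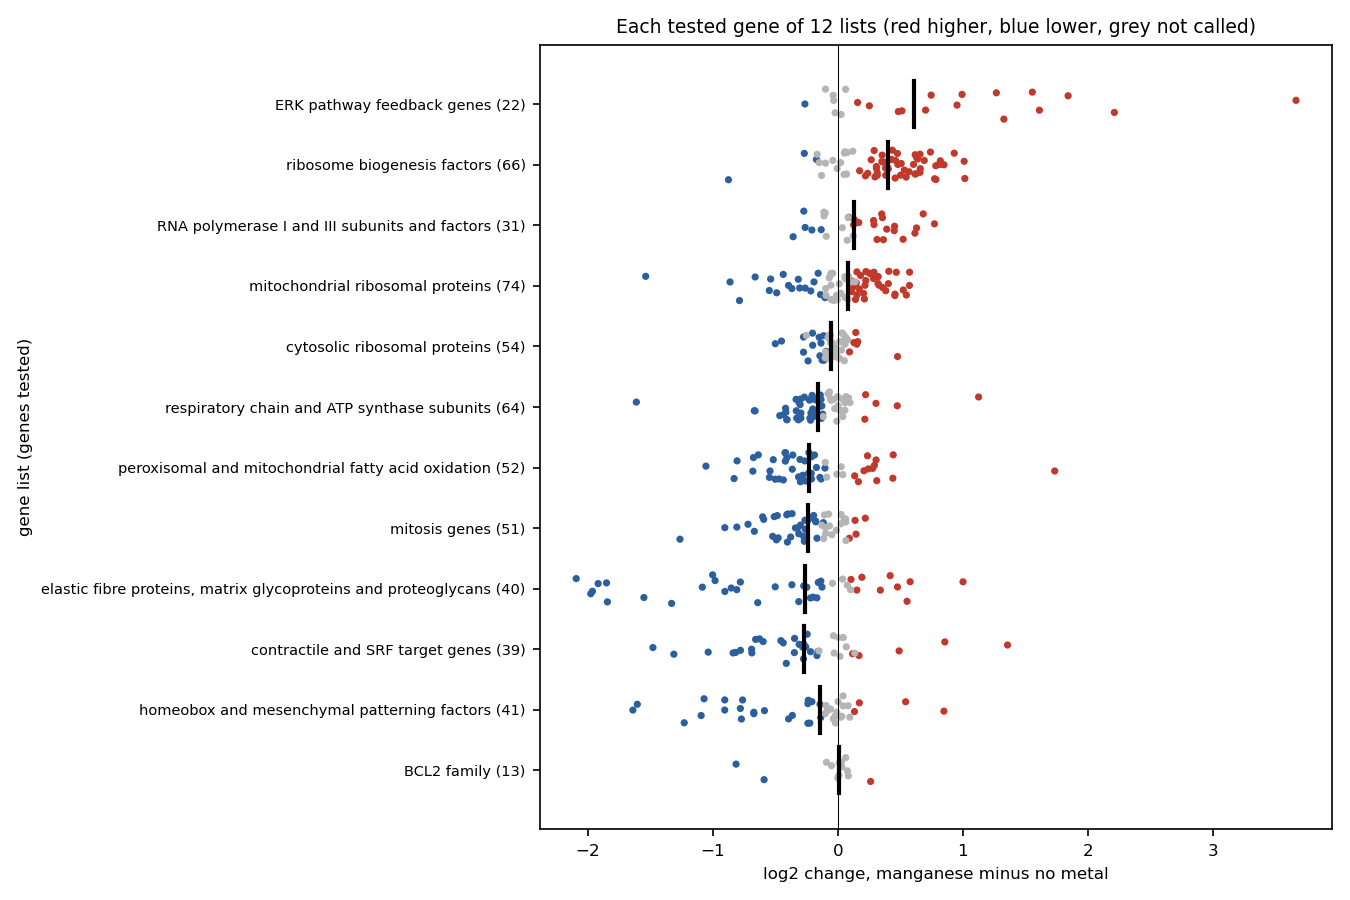
Each point is 1 tested gene of 12 gene lists, with its log2 change (manganese minus no metal) on the x axis, and black bars mark list medians. Ribosome biogenesis factors centre at 0.40 while cytosolic ribosomal proteins cluster at -0.06, and the BCL2 family stays near 0 apart from 3 genes.

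Most tested genes in the lists of fatty acid oxidation and of the tricarboxylic acid cycle fell, and not all of them are mitochondrial. Of 52 tested genes of peroxisomal and mitochondrial fatty acid oxidation, 35 fell (67.3%) and 12 rose, with a median log2 change of -0.23. Acadm, the medium-chain acyl-CoA dehydrogenase, was at 11.55 to 11.77 in controls (median 11.70) and at 10.61 to 10.68 with manganese (median 10.62), a log2 change of -1.06 (SE 0.0403, adjusted p = 1.79e-14). Acsl3, which activates long-chain fatty acids, fell by 0.81. Acot2, a mitochondrial thioesterase that frees fatty acids from CoA, went the other way and rose by 1.73 (SE 0.0482), from a median of 7.15 to 8.86. In the list of the tricarboxylic acid cycle and pyruvate dehydrogenase 14 of 24 fell and 5 rose (median -0.16). Idh1, the cytosolic and peroxisomal isocitrate dehydrogenase, was between 9.96 and 10.30 in controls (median 10.28) and between 8.30 and 8.55 with manganese (median 8.45), and fell by 1.76 (SE 0.0613, adjusted p = 4.34e-15). Ogdh fell by 0.59, and Pdhb, of pyruvate dehydrogenase, rose by 0.49.

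Of 64 respiratory chain and ATP synthase subunits, 39 fell (60.9%) and 5 rose, by small steps (median -0.16). By limma treat above 1.2-fold 8 fell and 2 rose, against 1573 lower and 1515 higher of all 12520 genes. The share that fell by that test was near the share over all genes. By complex, 20 of 32 listed subunits of complex I fell and 1 rose, and 10 of 14 ATP synthase subunits fell and 0 rose. In complex III the count was 4 lower and 2 higher of 7, and in complex IV 5 lower and 1 higher of 10. The muscle subunit Cox6a2, described above, is not in the list or in these counts. Within the list complex III held both extremes, the hinge protein Uqcrh, which fell by 1.61 (SE 0.0529) from a median of 13.21 to 11.58, and Uqcrq, which rose by 1.13 (SE 0.0468). The assembly-linked Cox7a2l fell by 0.67.

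Matrix genes were lower as well. Among 40 elastic fibre proteins, matrix glycoproteins and proteoglycans 27 fell (67.5%) and 9 rose, 10 of them lower by at least 2-fold and 1 higher (median -0.26). Prelp, a leucine-rich protein that anchors basement membranes, was at 10.83 to 10.98 in controls (median 10.90) and 8.59 to 8.99 with manganese (median 8.85), a log2 change of -2.09 (SE 0.0578, adjusted p = 1.26e-16). Ogn, osteoglycin, fell by 1.96 (SE 0.0487) and Ccn5, of the CCN family of matrix signalling proteins, by 1.85 (SE 0.0471). Svep1, a large adhesion protein of the matrix, fell by 1.98 on its probe, from a median of 9.55 to 7.51, but was at -0.00849 and not called (adjusted p = 0.146) in the authors' normalized gene table. Of 24 collagen chains 14 fell and 4 rose (median -0.17). Col4a5 of basement membranes fell by 1.34 and Col8a1 by 0.88, while Col18a1, the source of endostatin, rose by 0.72. Matrix proteases and inhibitors split 13 higher and 18 lower of 38 (median -0.09), with the protease Adamts1 at -1.92, Adamtsl4 at -0.85 and the urokinase receptor Plaur at 1.22. Complement and coagulation genes stood at 1 higher and 5 lower of 11 (median -0.11), with the complement inhibitor Cd59a at -0.96 and protein S (Pros1) at -0.84.

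Adhesion and guidance lists held large changes in both directions. Of 12 integrin subunits 5 rose and 3 fell (median 0.06), with Itgb7, known from lymphocyte homing, at 1.51, Itga5, of the fibronectin receptor, at 0.60 and Itga1, of a collagen receptor, at -0.93. Semaphorins, plexins, ephrins, slits and netrins split into 9 higher and 14 lower of 34 (median -0.02). Efnb1, an ephrin, fell by 1.57 and Flrt2 by 1.58, while its relative Flrt3 rose by 1.47 on 1 probe but was at 0.00 in the authors' normalized gene table. Among 23 cadherin and junction genes 8 rose and 10 fell (median -0.01), with p120 catenin (Ctnnd1) at -0.59 and the giant cadherin Fat1 at -0.58, while its relative Fat4 was at least 1.06-fold lower, with no manganese array above background.

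The contractile and cytoskeletal genes fell together with the fibroblast markers, and whether the 2 are linked was not tested. Of 39 contractile genes and SRF targets, 26 fell (66.7%) and 5 rose (median -0.27). Tpm1 (tropomyosin) fell by 1.04 on its chosen probe (SE 0.0421) but was at 0.0129, in the other direction and not called, in the unnormalised table per gene that the authors deposited. Cald1 (caldesmon) was at -1.48 on its most intense probe and at -0.29 on its weakest of 5. Pdlim1, an adaptor on actin fibres, rose by 1.36 (SE 0.0394). Among tubulins and microtubule binders outside mitosis 21 of 34 fell and 5 rose (median -0.20), and of the 9 listed tubulin chains 6 fell and 0 rose. Tuba1a fell by 0.92 and Tubb2b by 0.89, while Map1b, a microtubule protein of growing axons, rose by 1.68 on its chosen probe and by 0.26 on its weakest.

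Mitosis genes were mostly lower, and replication genes were mixed. Of 51 tested mitosis genes 32 fell (62.7%) and 4 rose, with a median of -0.24, and 17 fell and 0 rose by limma treat above 1.2-fold. Kif11, the motor that separates spindle poles, was at 9.54 to 9.71 in controls (median 9.59) and had a median of 8.89 with manganese, with no overlap, a log2 change of -0.72 (SE 0.047, adjusted p = 6.91e-11). Cenpm, a centromere protein, fell by 0.81, and Smc4 of condensin was at -0.90 on its chosen probe and at -0.09 on another. Of 45 DNA replication genes 14 rose and 10 fell (median 0.04), with the licensing factor Cdt1 at 0.73, Cdc45 of the replicative helicase at 0.48 and Mcm10 at 0.63 on its chosen probe. Mcm10 was not called in the authors' gene tables, at 0.067 without (adjusted p = 0.279) and 0.0017 with their normalisation (adjusted p = 0.783). With all 24 arrays in the fit the replication count was 8 higher and 9 lower. Cyclins, CDKs, their inhibitors and E2F factors of G1 were at 10 higher and 16 lower of 30 (median -0.14). The CDK inhibitor Cdkn1a (p21) rose, from 10.91 to 11.08 in controls to 11.88 to 12.10 with manganese (SE of the log2 change 0.0441, adjusted p = 1.6e-13), and E2f2 by 0.99, while the inhibitor Cdkn2d fell by 0.77. DNA repair genes stood at 21 higher and 13 lower of 52 (median 0.05), with Ercc1 at 0.79 and Xpa at -0.69, both of nucleotide excision repair, and Ung at -0.60. The p53 list was split, 11 higher and 10 lower of 26 (median 0.01), or 9 and 12 without normalisation, with the kinase Plk3 at 1.61.

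Of the 13 tested BCL2 family genes, which decide on death through mitochondria, 10 were not called (median 0.01). Bmf, at -0.82, and Bad, at -0.59, both promoters of cell death, fell, and the protector Mcl1 rose by 0.26. Proteasome subunits were nearly as still, with 9 higher and 5 lower of 34 (median 0.04), and 0 of 34 past limma treat above 1.2-fold. Their smallest adjusted p belonged to Psmd4 (0.34, SE 0.0421), Psmd7 (0.27) and Psmc5 (0.26), all of the 19S cap. Chaperonin and prefoldin subunits had 5 higher and 3 lower of 15 (median -0.02), with Pfdn2 at 0.37, Pfdn5 at -0.33 and Cct3 at 0.27.

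Histone genes split by class. Of 38 listed genes tested, 21 rose and 15 fell (median 0.21). A further 17 genes that were tested carry histone symbols but are not in the list, and the counts by class cover them too. All 12 tested H4 genes were called higher, as were 9 of 10 H2B genes and 9 of 11 H3 genes, with 1 lower in each of those 2 classes, whereas 12 of 17 H2A genes were called lower and 3 higher. H3c1 was at 8.08 to 8.19 in controls (median 8.11) and 9.72 to 9.97 with manganese (median 9.80), a log2 change of 1.70 (SE 0.0442, adjusted p = 5.49e-17), and H3c7 (1.73) and H3c4 (1.65) were close to it. These genes are near-identical copies, so a probe may read several and the values of single genes are uncertain. Histone-modifying enzymes and remodellers had 19 higher and 33 lower of 77 (median -0.08), with the demethylase Kdm7a at 1.39, Chd2 at 0.75 and Chd3 at -0.85.

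Homeobox and patterning genes fell more often than they rose. Of 41 homeobox and mesenchymal patterning factors 22 fell (53.7%) and 4 rose, 5 of them lower by at least 2-fold (median -0.14). Snai1, a repressor that drives epithelial cells to a mesenchymal state, was at 9.61 to 9.85 in controls (median 9.74) and 8.02 to 8.21 with manganese (median 8.07), a log2 change of -1.64 on its chosen probe (SE 0.0492, adjusted p = 4.37e-16) and -0.70 on the other. Hoxa2, a patterning gene of the head and neck, fell by 1.61 (SE 0.0483) and 1.55 on its 2 probes, and Hoxc9, of the trunk, by 1.23. Among 18 Hox genes 8 fell and 0 rose (median -0.10), where 32.9% of all genes tested fell. Hedgehog and Notch pathway genes had 12 of 17 lower (70.6%) and 1 higher (median -0.37). Maml2, a coactivator of Notch, fell by 0.98 and Cdon, a Hedgehog coreceptor, by 0.60, while the receptor Notch4 rose by 0.92, with 1 of 6 controls above background.

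Wnt pathway genes stood at 7 higher and 9 lower of 27 (median -0.07), and 3 of them fell by at least 2-fold. Tcf7l1, a TCF factor that represses Wnt targets, was at 12.07 to 12.28 in controls (median 12.22) and 9.84 to 10.16 with manganese (median 9.94), a log2 change of -2.25 (SE 0.0525, adjusted p = 1.24e-17), with -0.43 on its second probe. Tcf7l2, of the same family, fell from a median of 9.26 to 8.02 on its chosen probe, with -0.47 on another, and was not called in the authors' normalized gene table (-0.011, adjusted p = 0.0646). The receptor Fzd2 fell by 1.18. In the TGF-beta and BMP pathways 13 rose and 17 fell of 40 (median -0.03). Fst, follistatin, which binds and blocks activin, was between 9.65 and 10.03 in controls (median 9.92) and between 7.07 and 7.60 with manganese (median 7.51). The manganese arrays were all below the controls (log2 change -2.47, SE 0.0841, adjusted p = 3.13e-15). Id3, a BMP target, fell by 1.19, and the receptor Tgfbr2 was at -1.04 on its chosen probe but at 0.16, in the other direction, on another of its 3 probes. Osteogenic and chondrogenic genes had 10 higher and 3 lower of 17 (median 0.17), with Snorc at 0.90, Dlx1 at 0.50 and Cytl1 at -0.72. Adipogenic genes had 9 higher and 4 lower of 18 (median 0.06), with Dgat2, which completes triglycerides, at 1.15, Klf4 at 1.38 and Ebf1 at -0.88.

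The circadian clock turns on a loop in which CLOCK and BMAL1 bind E-boxes and their targets shut them off. Of 16 clock genes tested 8 rose and 4 fell (median 0.12). Ciart, a repressor of CLOCK and BMAL1, was at 7.55 to 7.63 in controls (median 7.60) and at 10.37 to 10.53 with manganese, and the groups were far apart (log2 change 2.90, SE 0.0385, adjusted p = 1.92e-20, with 3 probes from 2.45 to 2.95). Csnk1e, a kinase that acts on PER proteins, rose by 0.87 (SE 0.0412). Dbp, a clock output factor, fell by 1.10 (SE 0.052), from a median of 10.32 to 9.21. The Ciart promoter held 3 E-boxes, a near pair 58 and 44 bases before the start and 1 farther upstream, shown in capitals (RefSeq, GRCm38.p6, chr3:95882179-95882478, minus strand).
Ciart: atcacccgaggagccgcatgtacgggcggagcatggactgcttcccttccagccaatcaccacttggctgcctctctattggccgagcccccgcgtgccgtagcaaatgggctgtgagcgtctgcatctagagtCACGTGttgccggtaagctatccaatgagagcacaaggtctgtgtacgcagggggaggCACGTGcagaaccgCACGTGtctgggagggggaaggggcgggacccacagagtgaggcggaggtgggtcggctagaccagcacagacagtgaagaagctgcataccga

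Glucocorticoid receptor targets had 8 higher and 4 lower of 13 (median 0.44). Tsc22d3 (GILZ), a classic target, rose by 0.96 and Errfi1, which inhibits the EGF receptor and is also among the ERK feedback genes, by 0.99, while Angptl4, an inhibitor of lipoprotein lipase that is also in the hypoxia list set aside, fell by 1.36. AP-1, EGR and KLF transcription factors had 14 higher and 9 lower of 25 (median 0.18). Klf2 fell by 1.58 (SE 0.053), and Egr3 rose by 1.21 on its chosen probe and by 0.05 on its other.

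RNA for coat and tether genes of the secretory path fell more often than it rose. Of 53 COPI, COPII and Golgi tether genes 30 fell (56.6%) and 8 rose (median -0.16). By limma treat above 1.2-fold 9 fell and 0 rose, against 1573 lower and 1515 higher of all 12520 genes. Copz2, a COPI subunit, was at 11.99 to 12.10 in controls (median 12.05) and 10.86 to 11.15 with manganese (median 11.02), a log2 change of -1.03 (SE 0.0483, adjusted p = 4.6e-13) with all 4 probes between -1.03 and -0.91. Copg2 fell by 0.62 and the GTPase Arf5 by 0.57. Golgi glycosyltransferases, many of which need manganese, had 22 of 50 lower (44%) and 12 higher (median -0.10), and none changed by 2-fold. The sialyltransferases St3gal5 and St3gal4 fell by 0.91 and 0.69, and Galnt18 by 0.86 on its probe, though it was at -0.0054 and not called (adjusted p = 0.341) in the authors' normalized gene table. Glycosaminoglycan genes had 14 higher and 19 lower of 41 (median -0.10). Has2, which makes hyaluronan, fell by 1.85 (SE 0.0663), from a median of 10.60 to 8.81, and the proteoglycan Gpc3 by 1.16. Glce, an epimerase of heparan sulfate, rose by 1.87 (SE 0.0405) on its chosen probe and by 0.36 on the other. Of 46 lysosomal genes 24 rose (52.2%) and 12 fell (median 0.14), with the protease Ctsl at 1.15, Psap at 0.56 and Atp6v0a1 of the proton pump at -0.76. By limma treat above 1.2-fold 6 rose and 6 fell, both near the shares over all genes.

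In calcium handling 12 of 40 genes rose and 20 fell (median -0.09). Atp2a3, the SERCA3 pump, rose by 2.56 (SE 0.055) with 1 of 6 controls above background, and the channel Itpr2 rose by 1.11 on its chosen probe and 0.37 on the other. Ppp3ca, the catalytic subunit of calcineurin, fell by 1.23 (SE 0.0385). Regulators of G-protein signalling, cyclases and phosphodiesterases had 9 higher and 14 lower of 32 (median -0.08), with the anchoring protein Akap12 at -1.61, Prkar2b at -0.75 and Pde1b at 1.13. Prostaglandin and leukotriene genes had 5 higher and 2 lower of 13 (median -0.00202). Abcc4, an exporter of prostaglandins among others, rose by 1.31 and Ptges fell by 0.61, while Pla2g12a was at 0.99 on its chosen probe and at 0.00 on another.

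Some genes crossed the background. In 71 genes the signal was above background on all 6 manganese arrays and on no control array. Of the 53 with an annotated symbol, 5 belonged to the lists set aside. For these a lower bound is given, the manganese mean against the higher of the background floor and the gene's own control signal on each array. Taf7l, a germ cell relative of the TFIID subunit TAF7, was at least 5.83-fold higher. Its signal was 6.08 to 6.28 in controls (median 6.14) and 8.81 to 9.19 with manganese (median 9.01). Dnmt3l, a partner of DNA methyltransferases in germ cells that has no activity of its own, was at least 4.08-fold higher. Havcr2 (TIM-3) was at least 2.83-fold higher, Fam110c at least 2.49-fold and Tmem74 at least 2.05-fold. P2rx3, an ATP-gated channel of sensory neurons, was at least 2.92-fold higher on its probe, while the unnormalised table per gene gave a log2 change of -0.04 (adjusted p = 0.424). The start of Taf7l (RefSeq, GRCm38.p6, chrX:134476441-134476740, minus strand) held an E-box 49 bases before it, a metal response core 24 bases before it and AP-1 letters 8 bases after it, in capitals.
Taf7l: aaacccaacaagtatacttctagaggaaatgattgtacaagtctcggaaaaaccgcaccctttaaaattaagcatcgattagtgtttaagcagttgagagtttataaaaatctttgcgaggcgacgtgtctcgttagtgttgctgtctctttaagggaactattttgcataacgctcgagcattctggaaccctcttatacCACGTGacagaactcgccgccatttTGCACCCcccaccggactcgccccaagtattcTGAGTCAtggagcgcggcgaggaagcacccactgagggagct

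In 89 genes the opposite held, with signal above background on all 6 control arrays and on no manganese array. Of the 55 with an annotated symbol, 1 was in the lists set aside. The background floor was 6.45 to 6.48 on control arrays and 6.50 to 6.53 on manganese arrays, and its part in these counts was not tested. Trp63, of the p53 family, was at 8.16 to 8.43 in controls (median 8.34) and at 6.34 to 6.45 with manganese (median 6.39), at least 3.51-fold lower. Atoh8, a transcription factor with a basic helix-loop-helix, was at least 2.79-fold lower, the transporter Abcc3 at least 1.91-fold, Fam180a at least 1.91-fold and Aldh6a1, of valine breakdown in mitochondria, at least 1.75-fold. Rasgrp3, an activator of RAS, was at least 1.99-fold lower on its probe, but the unnormalised table per gene gave -0.04 (adjusted p = 0.555). Further large falls belonged to the glutamate transporter Slc1a3 (-1.94), the receptor Mrgprf (-1.93), Wfdc12 (-1.93), Eva1b (-2.07) and Nrep (-2.16).

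Gene families, grouped by the letters before the first digit of the symbol where at least 10 members were tested, numbered 99. The highest median was that of Dusp (0.57, 10 of 15 higher and 4 lower), with Dusp5 at 1.61 beside Dusp4. The 9 Dusp genes of the ERK feedback list are among these 15. Next came Timm, which imports proteins into mitochondria (0.28, 8 of 13 higher, Timm10 at 0.79 and Timm17b at -0.65), Parp (0.27, Parp14 at 1.90 and Parp12 at 1.47), the RNA helicases Ddx (0.23, Ddx58 at 0.94 and Ddx31 at 0.81) and Samd (0.22, Samd9l at 1.23 and Samd12 at 0.48, not called in the authors' normalized gene table), though Parp14, Parp12, Ddx58 and Samd9l are interferon-stimulated genes of the lists set aside. The lowest was Commd, of the endosomal Commander complex (-0.25, 7 of 10 lower, Commd3 at -0.64 and Commd6 at -0.48), followed by the intraflagellar transport genes Ift (-0.19, 8 of 12 lower, Ift27 at -0.56 and Ift74 at -0.54), Nudt (-0.19, Nudt8 at -0.70 and Nudt7 at -0.55), Col (-0.17, Col3a1 at -0.91) and Smim (-0.17, Smim11 at -1.22 and Smim8 at -0.69).

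The share of genes called rose with signal. It was 37.1% in the lowest of 4 equal groups of genes by mean level and 69.4%, 76.1% and 73.6% in the groups above it, so a gene near background that was not called is not thereby shown to be unchanged. Of 4224 genes with several tested probes, 204 had probes called in opposite directions.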

How the data were processed

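Total RNA was labelled as biotin cRNA and hybridised to Illumina mouse bead arrays, per the labels' protocols. The deposited non-normalized probe table holds linear intensity for 45281 probes, with no detection p-values or control probes. The authors' normalized tables, used as alternatives, hold log2 values, per the file headers. Without giving versions, the submitters' processing notes list lumi and RMA. The array number of each probe was matched through ranks within its symbol, and 34885 probes had 1 annotated gene. Background correction used normexp (offset 50), then quantile normalisation over the 12 arrays of the 2 groups. A probe counted as above background when its log2 intensity passed the upper 1% of a normal curve fitted below the array's mode, and had to do so on at least 6 of 12 arrays. The probe with the highest mean stood for each gene (12520 genes, 2558 of them with an array symbol only, which are not named). Groups were compared with limma 3.58.1 (lmFit and eBayes) in R 4.3.3, two-sided, with Benjamini-Hochberg adjustment over all genes. Python 3.11.15, NumPy 2.4.6, pandas 2.3.3 and Matplotlib 3.10.9 were used for matching, counting and plotting. Precision is limited by having 6 arrays per group, which may be technical replicates, and the number of separate cultures is not known.

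The 53 gene lists, the members and the tests were chosen with earlier results of these data known, and 1 list is not reported here. Genes were named by rule: the 15 largest rises and 15 largest falls among called genes without overlap between groups, outside the 4 lists set aside and without clone or locus names, up to 3 genes per list by smallest adjusted p (all members of lists with up to 10 tested), the 6 largest bounds among genes that crossed the background in each direction, and 2 genes from each of the 5 highest and 5 lowest families. Fibroblast markers and markers of other cell types are named from their own list. The fit was tested on simulated data. The labels give no slide, scan or batch. Same-numbered replicates were checked for shared deviations, which gave correlations from -0.18 to 0.20, so the numbers were not used as pairs. No arrays held identical values. Promoter sequences are RefSeq's for GRCm38.p6, found for 23 of the 30 genes with the largest changes. Alternatives were other normalisations, offsets, filters, probe rules, deposited tables and fits, and leaving out each array.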

Additional observations from a re-analysis of the deposited data

Results flagged for a closer look

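In 410 sets of 6 arrays (205 named genes in 2 groups) 19 held an array whose gap to the nearest other one was beyond Dixon's critical value, which chance gives in about 1 of 20 sets (4.63% here). No explanation was tested, and leaving out any 1 array changed no call of the genes listed next. Among manganese arrays the lowest value stood apart for Ciart at 10.37 in replicate 3 (nearest other 10.48), Cct3 at 13.44 in replicate 1 (nearest other 13.59), Has2 at 8.44 in replicate 2 (nearest other 8.78), Gpc3 at 6.35 in replicate 3 (nearest other 6.47) and Klf2 at 7.07 in replicate 4 (nearest other 7.30). Among control arrays the lowest value stood apart for Gadd45a at 8.39 in replicate 2 (nearest other 8.55), Mxd4 at 11.57 in replicate 3 (nearest other 11.73), Fam110c at 6.04 in replicate 3 (nearest other 6.24), Rps15a at 7.09 in replicate 6 (nearest other 7.22), Odc1 at 11.77 in replicate 6 (nearest other 11.88), Ctnnd1 at 10.85 in replicate 2 (nearest other 10.99), H3c7 at 8.43 in replicate 1 (nearest other 8.55) and Smim8 at 10.25 in replicate 2 (nearest other 10.43). Among control arrays the highest value stood apart for Pdgfra at 11.21 in replicate 1 (nearest other 10.92). Among manganese arrays the highest value stood apart for St3gal4 at 7.50 in replicate 6 (nearest other 7.38), Acadm at 10.68 in replicate 1 (nearest other 10.63), H3c7 at 10.45 in replicate 1 (nearest other 10.27), Mcm10 at 11.76 in replicate 6 (nearest other 11.59) and Samd12 at 6.998 in replicate 2 (nearest other 6.95).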

How the results depend on the processing

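The counts of called genes kept within 1.5 times of the reported ones, at 7076 to 8592 called and 434 to 711 by at least 2-fold, in the alternatives run, apart from those named next. Asking for more than 1.2-fold (limma treat) left 3088 called genes. By the authors' normalized values, at least 2-fold changes numbered 175 per gene and 145 per probe, and the cause was not tested. Leaving out 1 array at a time gave 7793 to 7999 called genes and 520 to 547 by at least 2-fold. With the replicate number as a block 8106 genes were called and 537 by at least 2-fold, and 1 of 6 arrays per group correlated best with its own number, so the numbers were not taken as pairs. An offset of 16 raised the 2-fold count to 711, and without the background filter 8592 of 28156 genes were called.

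Of 205 genes given by the naming rule, 4 changed direction in a table that joins all probes of a symbol: P2rx3 (-0.0418 without and -0.00327 with the authors' normalisation), and Igf1r (0.000924), Mbnl1 (0.000829) and Tpm1 (0.0129) in 1 of the 2 tables. Svep1, Tcf7l2, Rasgrp3, Flrt3, Masp1, Galnt18, Mcm10, Samd12 and Dohh lost the call in 1 or both of these. Over all genes, 58 and 37 of the called genes were called in the opposite direction there, 24 with the mean of probes, and 0 in every other alternative. Lists whose balance of calls tipped or tied in some setting were p53 targets, splicing factors, replication, nucleotide synthesis, polyamines, chaperonin, integrins, lysosome, proteasome and the MYC network. Signal near background limits what can be called.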
